A study of Mus musculus with 3 samples.

Results

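Cd22 and Siglecg are sialic acid binding receptors of B cells, and the 8 other genes described here code for enzymes that make, activate or attach sialic acid or build the galactose ends that carry it. The 10 genes were taken by name from 24901 gene rows, and all 10 reached the minimum level used (1 CPM together with 30 counts in any library), as 10754 rows did. They were selected by name with their ratios to control in these same libraries already known, so the values below describe them and test nothing. RNA came from CH12, a mouse B lymphoma line grown in culture, with poly(A) mRNA sequenced for 50 cycles. The 3 libraries, 1 per group, were a control, cells given TGFb at 5 ng/ml for 6 h and cells given the same dose for 24 h. The labels name no time for the control, so time in culture and treatment cannot be told apart.

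Sialic acid sits at the outer end of glycans on cell surfaces. It is made in the cytosol from a sugar nucleotide, activated to CMP-sialic acid in the nucleus, carried into the Golgi and joined by sialyltransferases to galactose or to another sialic acid. Cd22 is a B cell receptor of the Siglec family (lectins that bind sialic acid) whose ligands carry the linkage that St6gal1 makes, on its own cell as well as on others, and its cytoplasmic tail recruits the phosphatase Ptpn6 and so damps signals of the antigen receptor. Siglecg, the mouse counterpart of human SIGLEC10, is also inhibitory in B cells and is known above all from B-1 cells.

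Library totals were 51386081 (control), 64229801 (6 h) and 27487221 (24 h) counts, so 1 count was worth 0.0206, 0.0155 and 0.0345 normalized CPM (a count's share of its library after TMM scaling). Folds are given with the exact conditional 95% interval of a ratio of counts (Clopper-Pearson), which covers counting error only. No library has a replicate, and so no difference here has a check against the spread between cultures. B cell markers were present throughout: 11 of 13 passed the minimum level, and their summed level was 4875, 4745 and 5816 CPM in control, 6 h and 24 h. Of the 11, 0 were 2-fold apart at either time, beside 2.76% of all measured genes at 6 h and 9.43% at 24 h. Cr2 (1, 0 and 0 counts) and Fcer2a (30, 39 and 14 counts) were the markers at or near 0. In bulk RNA, fewer cells with a transcript and less of it per cell cannot be told apart.

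Of the members, 3 have a single listed start site and stood at least 2-fold from control at both times, and the 250 bases before that start are shown for these. The series is titled for Smad3 and Smad7 binding, so 3 short patterns known for Smad proteins were searched on both strands. The first was CAGAC, the core of many known Smad binding elements. The second was the GC-rich pattern GGCGC, known for Smad proteins too. The third was the palindrome GTCTAGAC, which contains neither of the other two. Capitals mark a match, and each sequence runs 5′ to 3′ on the strand of its gene (minus strand in all 3, RefSeq, GRCm38.p6). Cd22 is at chr7:30879029-30879278, B4galt1 at chr4:40853985-40854234 and St8sia1 at chr6:142964453-142964702.
Cd22: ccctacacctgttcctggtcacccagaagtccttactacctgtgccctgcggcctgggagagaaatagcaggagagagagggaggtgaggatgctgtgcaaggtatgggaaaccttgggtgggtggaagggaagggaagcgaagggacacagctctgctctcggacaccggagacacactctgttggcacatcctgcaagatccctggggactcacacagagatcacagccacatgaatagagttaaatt
B4galt1: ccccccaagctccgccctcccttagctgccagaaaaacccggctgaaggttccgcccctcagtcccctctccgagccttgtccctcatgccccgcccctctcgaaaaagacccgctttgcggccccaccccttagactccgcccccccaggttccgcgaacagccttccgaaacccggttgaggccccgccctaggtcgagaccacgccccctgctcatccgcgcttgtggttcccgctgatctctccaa
St8sia1: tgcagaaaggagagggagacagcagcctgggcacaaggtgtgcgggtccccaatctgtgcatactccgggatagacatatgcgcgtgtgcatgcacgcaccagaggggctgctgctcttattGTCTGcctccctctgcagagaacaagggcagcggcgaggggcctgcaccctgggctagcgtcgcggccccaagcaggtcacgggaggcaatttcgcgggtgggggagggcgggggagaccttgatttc
The Cd22 and B4galt1 windows held 0 matches, which says only that these letters are not in these windows. The St8sia1 window held 1 match of the first pattern, read as GTCTG on the strand shown. Over 32851 windows of the same length, the first pattern was in 42.2%, the second in 32.0% and the palindrome in 0.167%. For Cd22 and St8sia1 the listed start lies inside the RefSeq gene record. The windows at the 3 listed starts of St6gal1 held 0, 1 (the second pattern) and 1 (the first pattern) matches, and both listed windows of Siglecg held 0. For St3gal1 no window was used here.

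Cd22 mRNA was lower at both times. The gene (chromosome 7, 30865404 to 30880342) had 6768, 2380 and 452 counts in control, 6 h and 24 h, which is 139, 37.0 and 15.6 CPM. The control library was the highest and the 24 h library the lowest. Against control the level was 3.76-fold lower at 6 h (3.59 to 3.95) and 8.94-fold lower at 24 h (8.13 to 9.85), and from 6 h to 24 h it was 2.38-fold lower (2.15 to 2.63). Among the 10754 measured genes, only 2 had a lower ratio at 6 h and 1 at 24 h. Per length, Cd22 went from 52.3 TPM (transcript abundance per length, as deposited) to 15.5 and 7.03 TPM.

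Siglecg differed in the other direction and stayed under 2-fold. It (chromosome 7, 43408192 to 43418349, 12528 kb from Cd22) had 49.0, 58.0 and 93.2 CPM in the same order. Control was the lowest library and 24 h the highest. The ratio to control was 1.18 at 6 h (1.12 to 1.25) and 1.90 at 24 h (1.8 to 2.01), just under the limit of 2-fold, and it passed that limit with total counts and with the deposited TPM (log2 ratio 1.19 with TPM). Some of its reads were shared with another gene, as its fractional control count of 2382.94 shows, but how many is not known. In TPM the 2 receptors changed places: Siglecg had 0.598 times the level of Cd22 in control, 2.66 times at 6 h and 10.2 times at 24 h. These ratios are formed within a library and so do not depend on how libraries are scaled.

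The other Siglec genes were low. Of 9 Siglec rows, 4 were measured, and Cd22 made up 61.2% of the TPM summed over the 9 in control, 23.9% at 6 h and 7.53% at 24 h, while Siglecg made up 36.6%, 63.7% and 76.7%. Siglecf, a Siglec of eosinophils and other myeloid cells, had 2.37, 9.65 and 17.5 CPM and was 7.38-fold higher at 24 h (6.02 to 9.12), with a fractional count in control that marks shared reads. Siglech, a marker of plasmacytoid dendritic cells, had 16, 50 and 30 counts. Cd33 had 10, 50 and 16 counts and did not pass the minimum level. Siglec1, Siglece and Mag had at most 8 counts in a library, and Siglec15 had 0 in all 3. Myeloid markers stood higher in the treated libraries too: 5 of 13 were measured (Siglech is on both lists), and the list summed to 25.8, 35.3 and 61.0 CPM. At 24 h, 4 of the 5 were called higher, beside 7.41% of all measured genes, and at 6 h 0 were, beside 2.40%. Siglech, with 30 counts and 1.03 CPM at 24 h, only just met the minimum level. Siglech and Itgam (0.864, 0.902 and 3.24 CPM) passed it in the 24 h library only, so neither could have been called lower. Of their defining members S100a8, S100a9 and Elane were at 0 in all 3 libraries and Lyz2 had 6, 0 and 0 counts. The part of these markers in the Siglecf and Siglech values was not tested.

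**Figure D1:**
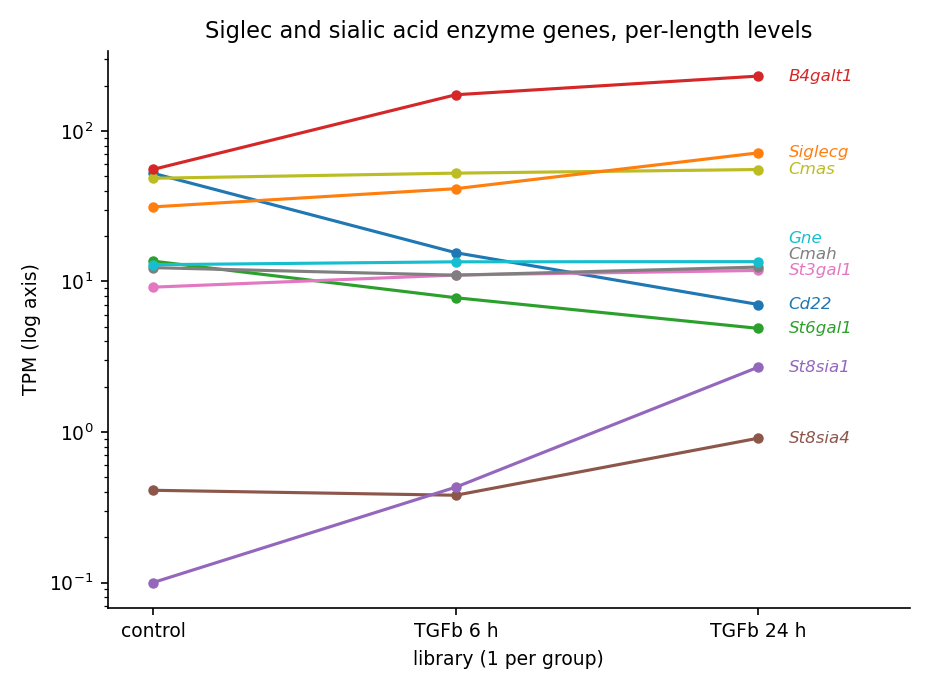
Level of each of the 10 genes in TPM (log axis) in the control, 6 h and 24 h libraries, 1 point per library. Cd22 goes from 52.3 to 7.03 TPM and St6gal1 from 13.6 to 4.88 TPM, while B4galt1 reaches 232 TPM and St8sia1 climbs from 0.10 to 2.70 TPM.

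St6gal1, the sialyltransferase that makes the Cd22 ligand linkage on N-glycans, was lower along with the receptor. It (chromosome 16, 23224729 to 23360350) had 1821, 1226 and 330 counts, which is 37.5, 19.1 and 11.4 CPM. Each later library was below the one before it. The level was 1.97-fold lower at 6 h (1.83 to 2.12), just short of the limit, and 3.29-fold lower at 24 h (2.93 to 3.72). With the trend of ratios along transcript length removed, the 6 h value lay past the limit (log2 ratio -1.06 against -0.98). RSEM's mean transcript length for this gene, which has 3 listed transcripts, was 4225, 4198 and 4307 bases. A mean length does not show which of the transcripts were present, so their mix is not known. At 24 h, 30 of the 10754 measured genes had a lower ratio than St6gal1.

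B4galt1, which adds the galactose that St6gal1 and other sialyltransferases cap, was higher at both times. It (chromosome 4, 40804602 to 40853984) had 7979, 29654 and 16539 counts, or 164, 461 and 570 CPM. Both treated libraries lay far above control. The ratio was 2.81 at 6 h (2.74 to 2.88) and 3.47 at 24 h (3.38 to 3.57), and only 1.24 between 24 h and 6 h (1.21 to 1.26). It was the member with the highest TPM in each library. Among B4galt1 to B4galt6 its share of summed TPM was 45.1%, 64.1% and 68.2%. B4galt1 and St6gal1, successive steps on one glycan branch, stood 4.07 to 1 in TPM in control, 22.3 to 1 at 6 h and 47.5 to 1 at 24 h.

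St3gal1, which caps galactose on O-glycans with sialic acid in another linkage, was close to its control level. It (chromosome 15, 67102875 to 67176946) had 34.9, 37.6 and 37.5 CPM, a ratio of 1.08 at 24 h with an interval of 0.996 to 1.16. With the length trend removed the ratio was just below 1 at both times. St6gal1 had 1.49 times the TPM of St3gal1 in control and 0.412 times at 24 h.

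**Figure D2:**
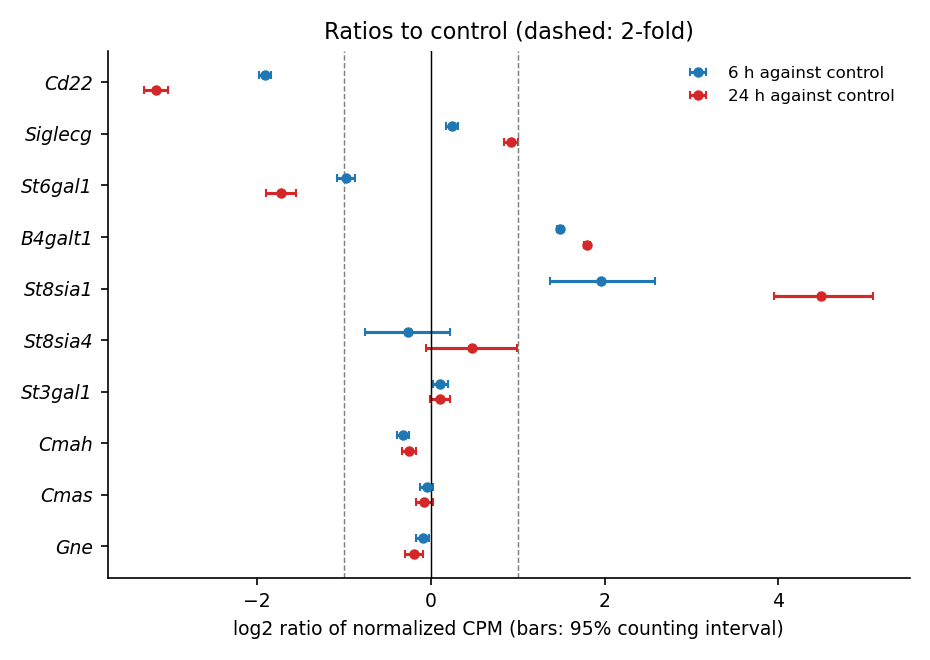
Log2 ratio to control of normalized CPM for each of the 10 genes at 6 h (blue) and 24 h (red), with bars for the 95% counting interval and dashed lines at 2-fold. Cd22 and St6gal1 lie left of 0 and B4galt1 and St8sia1 right of it at both times. The Siglecg point at 24 h, at 0.93, lies just short of the dashed line, and its bar (0.847 to 1.007) crosses that line.

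The enzymes that supply sialic acid were near their control levels. Gne, the bifunctional enzyme that starts sialic acid synthesis (chromosome 4, 44034075 to 44084177), had 47.6, 44.5 and 41.5 CPM, 1.15-fold lower at 24 h (1.07 to 1.23). Cmas, which activates sialic acid to its CMP form (chromosome 6, 142756686 to 142775714), had 52.2, 50.6 and 49.6 CPM, a ratio of 0.950 at 24 h (0.890 to 1.01). Cmah, the hydroxylase that turns CMP-Neu5Ac into CMP-Neu5Gc, the form that mouse Cd22 prefers (chromosome 13, 24327404 to 24477289), had 76.7, 61.3 and 64.6 CPM, 1.25-fold lower at 6 h (1.20 to 1.31) and 1.19-fold lower at 24 h (1.12 to 1.26). With the deposited TPM, the 24 h ratios of all 3 turned to above 1 (Gne and Cmas at 6 h also). Of the 7 measured supply genes 0 were 2-fold apart at either time, beside 2.76% of all measured genes at 6 h and 9.43% at 24 h. All 7 had a ratio below 1 at 24 h, beside 5482 of all 10754 measured genes. Their median log2 ratio at 24 h was -0.10, beside -0.01 over all measured genes. That sign turned with total counts (0.06), the deposited TPM (0.16) and the length trend removed (0.08). Nans, the sialic acid synthase and the furthest out at 24 h, had 147, 125 and 105 CPM, and Slc35a1, the Golgi transporter of CMP-sialic acid, had 14.5, 16.2 and 14.1 CPM.

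St8sia1 was the member with the largest ratio. It codes for GD3 synthase, which joins a further sialic acid to ganglioside GM3 (chromosome 6, 142821541 to 142989528, 45.8 kb from Cmas). Its counts were 29, 149 and 390, or 0.597, 2.32 and 13.4 CPM. The control library was below the minimum level, which the gene passed through the treated libraries only. The ratio was 3.88 at 6 h (2.59 to 6.0) and 22.5 at 24 h (15.4 to 34.1), and 5.80 between 24 h and 6 h (4.79 to 7.06). At 24 h, 10 measured genes had a higher ratio. Per length it stayed low, at 0.10, 0.43 and 2.70 TPM, the last of these above only 9.35% of measured genes. Against St3gal5, which makes GM3, it stood at 0.00929, 0.0334 and 0.161 TPM per TPM. Its transcript model is long (8995 bases), and with the length trend removed its log2 ratio at 24 h was 3.98 in place of 4.49.

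St8sia4, a polysialyltransferase, was low in every library. It (chromosome 1, 95587682 to 95667717) had 70, 77 and 58 counts, or 1.44, 1.20 and 1.999 CPM, and both intervals against control held a ratio of 1 (0.593 to 1.17 at 6 h, 0.963 to 1.99 at 24 h). Between 24 h and 6 h the ratio was 1.67 (1.17 to 2.38), under the limit of 2-fold. The mean transcript length RSEM gave was 5413 bases in control and at 6 h and 4080 at 24 h, so the deposited TPM (0.41, 0.38 and 0.91) put the 24 h library higher than the counts do, with a log2 ratio of 1.15 against 0.47. That estimate of the transcript mix rests on 58 counts.

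By the rule of size, B4galt1 and St8sia1 were higher and Cd22 lower at 6 h, that is 3 of 10, beside 2.76% of all measured genes (2.40% higher and 0.363% lower). At 24 h the rule called B4galt1 and St8sia1 higher and Cd22 and St6gal1 lower, 4 of 10 beside 9.43% of all (7.41% higher and 2.02% lower). Between 24 h and 6 h it called St8sia1 higher and Cd22 lower, 2 of 10 beside 2.24% of all (1.87% higher and 0.372% lower). Since the members were put together with these results known, nothing is read from these shares. The comparisons at 6 h and 24 h also share the control library. The median log2 ratio of the 10 was -0.07 at 6 h and 0.02 at 24 h, beside 0.00 and -0.01 over all measured genes, as members lay on both sides, and the sign of both medians turned with the scaling.

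**Figure D3:**
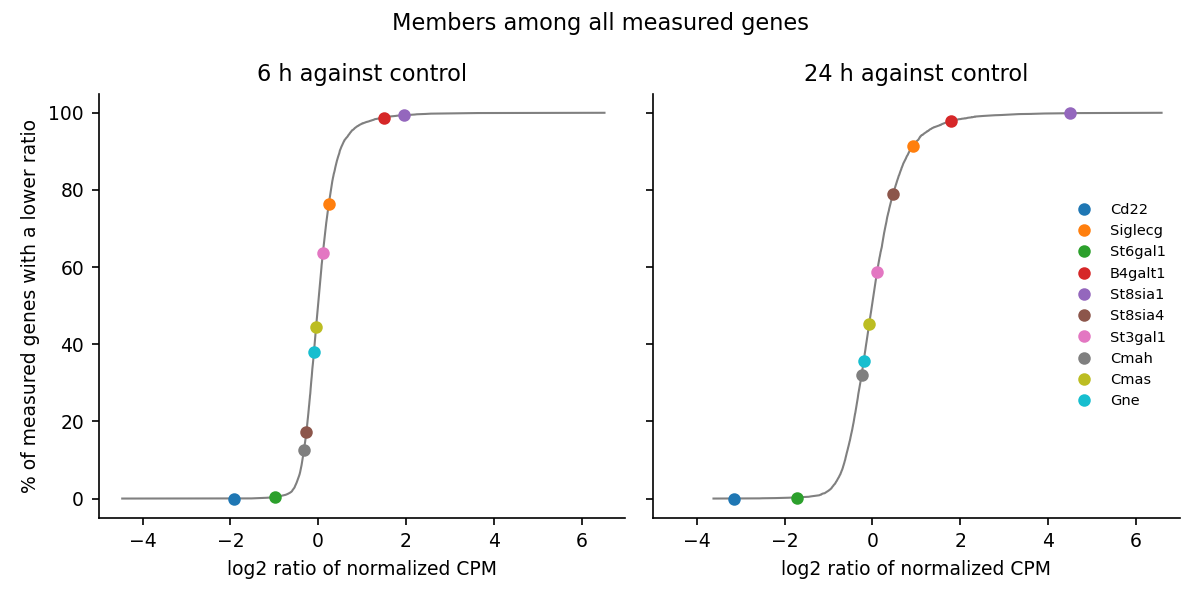
Share of the 10754 measured genes with a lower log2 ratio (vertical axis, percent) against the log2 ratio (horizontal axis) at 6 h and at 24 h, with all genes as the grey curve and the members as points. Cd22 and St6gal1 sit at the foot of the curve, St8sia1 and B4galt1 at its top, and St3gal1, Cmas, Gne and Cmah on its steep middle.

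In per-length order, control cells had B4galt1 (55.6 TPM), Cd22 (52.3) and Cmas (48.5) at the top, then Siglecg (31.3), St6gal1 (13.6), Gne (12.9), Cmah (12.4) and St3gal1 (9.17), with St8sia4 (0.41) and St8sia1 (0.10) far below. With 1 library per group no spread is known, so neighbours such as St6gal1, Gne and Cmah cannot be ordered. At 24 h the order began with B4galt1 (232), Siglecg (71.6) and Cmas (55.5), and Cd22 (7.03) had moved to the seventh place, above St6gal1 (4.88).

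Of 20 sialyltransferase genes 12 were measured and 3 (St6gal2, St6galnac1 and St8sia2) had 0 counts in all libraries. Only St8sia1 was called at 6 h (1 of 12, beside 2.76% of all measured genes), and St8sia1 and St6gal1 at 24 h (2 of 12, beside 9.43%), 1 in each direction, with a median log2 ratio of 0.04 (-0.03 with a minimum of 5 CPM). The summed level was 306, 290 and 317 TPM. St6gal1 was a small part of it in every library, 4.47% in control, 2.69% at 6 h and 1.54% at 24 h. St6galnac4, which acts on O-glycans that already carry a sialic acid, went from 170 to 111 and 97.0 CPM, and St3gal6, an N-glycan capping enzyme, from 102 to 80.6 and 66.3 CPM. St3gal4 had 22.8, 17.5 and 15.3 CPM. Set against the summed TPM of St3gal3, St3gal4 and St3gal6, which compete with it for galactose, St6gal1 stood at 0.143, 0.0910 and 0.0611. St8sia6 made up the largest share at 24 h, 25.04%, from 17.2% in control.

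**Figure D4:**
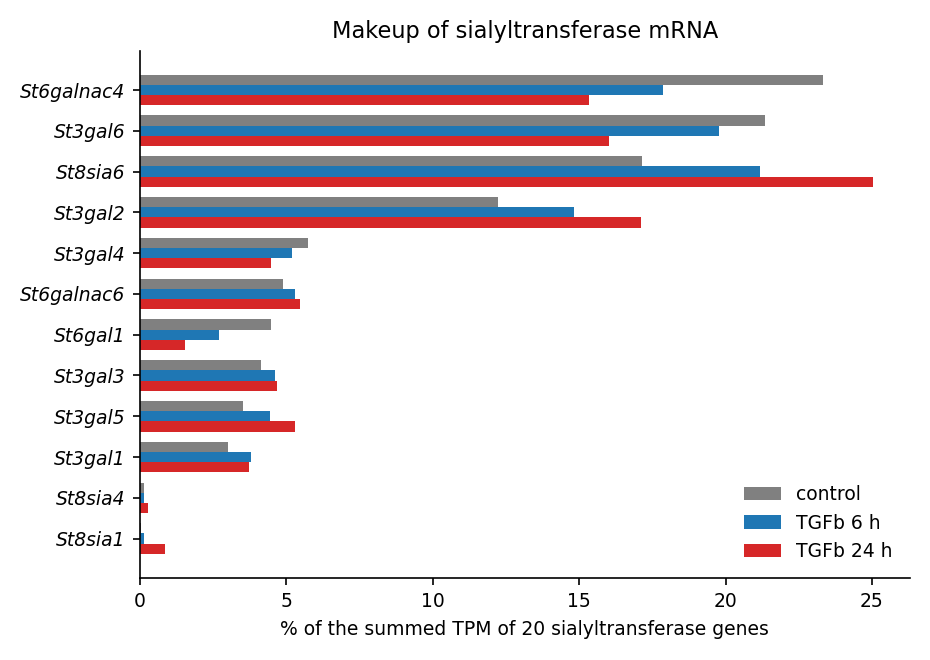
Share of the TPM summed over 20 sialyltransferase genes (horizontal axis, percent) taken by each of the 12 measured ones, in the control (grey), 6 h (blue) and 24 h (red) libraries. St6gal1 shrinks from 4.47% to 1.54%, and St6galnac4, the largest in control at 23.3%, stands at 15.3% at 24 h.

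Of 17 measured genes of N-glycan branching and galactosylation, only B4galt1 was called at 6 h, and only B4galt1 and Mgat5 at 24 h, all higher. That is 1 of 17 at 6 h, beside 2.40% of all measured genes called higher, and 2 of 17 at 24 h, beside 7.41%. The median log2 ratio was 0.07 at 24 h. Mgat5, which adds a branch that is extended with galactose, had 11.1, 20.8 and 34.8 CPM and was 3.14-fold higher at 24 h (2.83 to 3.50). Mgat4a, another branching enzyme, had 66.2, 124 and 130 CPM, 1.96-fold above control at 24 h, just short of the limit. Man1a had 298, 334 and 470 CPM, and B3gnt2, which extends poly-lactosamine chains, 203, 138 and 135 CPM. Of 8 measured genes of ganglioside synthesis, St8sia1 was called higher at both times and B4galt5, which makes lactosylceramide, at 24 h (68.5, 130 and 145 CPM). That is 1 of 8 at 6 h and 2 of 8 at 24 h, beside the same 2.40% and 7.41%. B4galnt1, which competes for GM3, had 85.2, 70.2 and 61.3 CPM. Of 11 measured core O-glycan enzymes 0 were called at either time, beside 2.76% of all measured genes at 6 h and 9.43% at 24 h. Galnt4, the furthest out of these at 24 h, had 5.08, 8.02 and 9.44 CPM.

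Genes that alter or release sialic acid, or sulfate the glycans beside it, held 1 called gene. Of 4 measured genes for removal and O-acetylation 0 were called, beside 2.76% of all measured genes at 6 h and 9.43% at 24 h. The lysosomal sialidase Neu1 had 55.5, 47.5 and 36.5 CPM, Casd1, which O-acetylates sialic acid, had 24.998, 29.9 and 35.5 CPM, and Siae, which takes the acetyl group off, had 3.66, 4.87 and 5.17 CPM. Of 4 measured sulfation genes 1 was called, the sulfotransferase Chst7, lower at both times. The same rule called 0.363% of all measured genes lower at 6 h and 2.02% at 24 h. Chst7 had 17.7, 8.67 and 7.72 CPM, 2.29-fold lower at 24 h (1.98 to 2.67). Chst2 had 1, 0 and 0 counts, and Chst1 and Chst4 were at 0. Of 5 measured galectins, lectins that bind galactose ends, only Lgals4 was called (higher at 24 h, 3.10 CPM, with shared reads). That is 1 of 5, beside 7.41% of all measured genes called higher at 24 h. Lgals1 had 102, 90.4 and 64.4 CPM.

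Partners of Cd22 in signalling were not among the genes 2-fold apart. Of 17 measured, 0 were called at either time, beside 2.76% of all measured genes at 6 h and 9.43% at 24 h. At 24 h 14 of the 17 had a ratio above 1, beside 5272 of all 10754 measured genes. Their median log2 ratio was 0.12 at 6 h and 0.29 at 24 h. The 24 h median was 0.19 with the length trend removed and 0.55 with the deposited TPM. Ptpn6, the phosphatase that binds the Cd22 tail, had a ratio of 1.05 at 24 h (1.03 to 1.07). Lyn, the kinase that phosphorylates that tail, had 104, 105 and 151 CPM. Inpp5d, a lipid phosphatase of the same inhibitory pathway, had 197, 326 and 317 CPM, a ratio of 1.61 at 24 h (1.56 to 1.65). Atp2b4, a calcium pump tied to Cd22, had 87.6, 125 and 129 CPM, and Plcg2 had 470, 551 and 620 CPM.

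**Figure D5:**
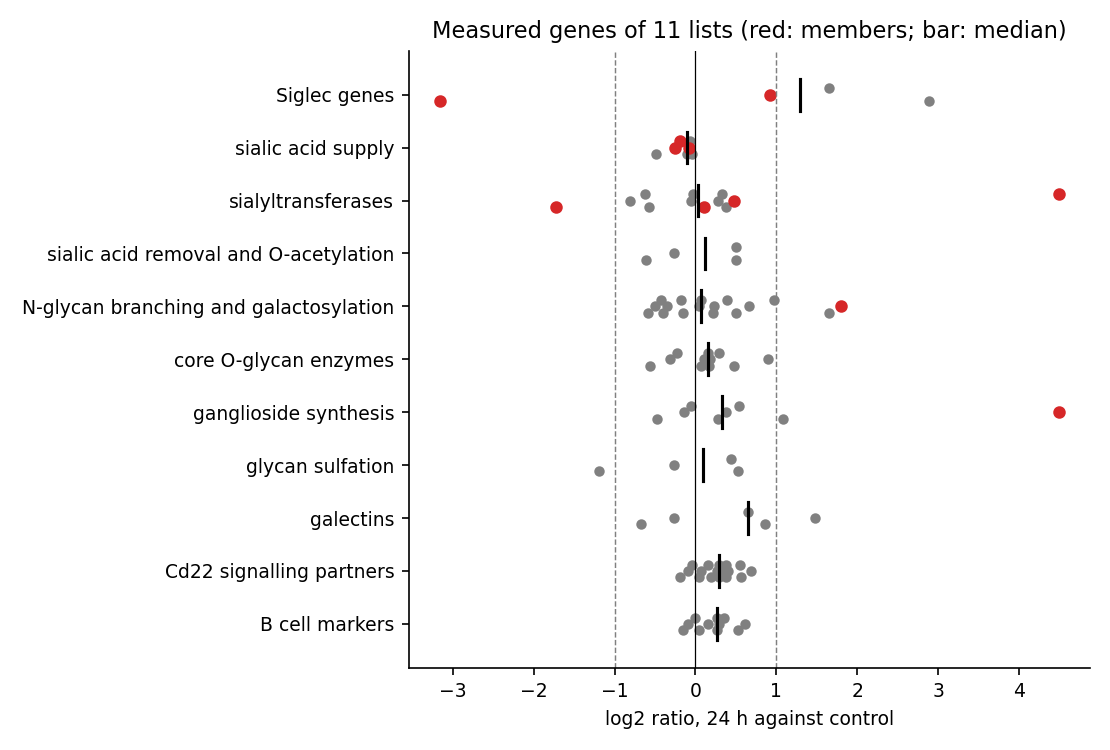
Log2 ratio at 24 h against control of each measured gene of 11 lists, with members in red, other genes in grey, black bars at list medians and dashed lines at 2-fold. The supply genes cluster near 0 with a median of -0.10 (positive with total counts, TPM or the length trend removed) and the Cd22 signalling partners at 0.29, while Cd22, St6gal1, B4galt1 and St8sia1 stand outside the dashed lines.

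The measured genes whose pattern lay nearest to that of Cd22, by Euclidean distance over the 2 log2 ratios of CPM + 1 against control (3 libraries), were Cacna1h, Ehf, Wnt10a, Nrros and Batf3. The nearest, Cacna1h, was at a distance of 1.04 and had 15.7, 5.24 and 2.76 CPM. None of these genes matched both ratios of Cd22 (-1.88 and -3.08 on this scale). Nearest to St8sia1 were Lrig1 at a distance of 0.21 (0.206, 1.45 and 11.6 CPM), Itgax (shared reads), Cd7, Kif1a and Bfsp1. St8sia1 and Lrig1 were below 1 CPM in control, where adding 1 CPM shrinks a ratio. At 24 h the log2 ratio of St8sia1 was 3.18 on this scale and 4.49 without the added CPM. For Cd22 it was -3.08 and -3.16. A distance from St8sia1 therefore cannot be compared with one from Cd22, and a small one does not mean equal folds. With the deposited TPM 4 of the 5 genes near Cd22 were again among its nearest but 0 of the 5 near St8sia1, and with the length trend removed 4 and 2 were.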

How the data were processed

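The authors deposited 1 RSEM table per library, with an expected count, a TPM and an FPKM value per gene and the mean transcript length, per the file headers. Tools named in the submitters' processing notes are CASAVA 1.8.2, STAR, RSEM and bedtools, with the build mm10. The annotation, the strand setting and the remaining versions are not stated there. FPKM values, made by the authors' RSEM run, stayed unused.

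Expected counts were rounded to whole numbers and scaled by TMM (edgeR 4.0.16, R 4.3.3; factors 0.946, 1.002 and 1.056 for control, 6 h and 24 h). A gene was called when its levels were 2-fold or more apart and the higher library had 1 CPM and 30 counts or more. A count of 0 was set to 3 counts. With 1 library per group no test was run. Levels are compared between genes in TPM only. The rule was checked on simulated data.

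Members and lists were chosen with earlier results of these data known. Of each of 14 lists, up to 4 measured genes were named, those furthest from a log2 ratio of 0 of CPM + 1 at 24 h, with all Siglec genes of at least 30 counts and the 5 genes nearest in pattern to Cd22 and to St8sia1. Further genes were named for their role after their values were seen, and not every gene that this rule took is described. Other settings tried were scaling by total counts, by upper quartile or by size factors of DESeq2 1.42.0, the deposited TPM, other minimum levels and fold limits, and removal of the length trend (medians of 20 length bins). T cell markers (5 of 10 measured) summed to 225, 381 and 371 CPM. Most of that sum was Lck (153, 257 and 259 CPM) and Cd5 (59.0, 114 and 102 CPM), neither of them called. Cd4 was called lower at both times (2.90, 1.17 and 1.03 CPM). At 24 h, 2 of the 5 had a ratio above 1 and 3 below. Fibroblast and endothelial markers (4 of 9 measured) summed to 4.94, 10.8 and 17.6 CPM. At 6 h Pdgfrb and Pecam1 were called higher, 2 of 4 beside 2.40% of all measured genes. All 4 were called higher at 24 h, beside 7.41%. Of these, Col1a1 (0.247, 0.404 and 1.07 CPM) passed the minimum level in the 24 h library only, so it could not have been called lower. The part of both marker lists in the members' values was not tested. Gene positions are RefSeq's on GRCm38.p6, the assembly of mm10, matched by transcript accession, and promoter windows are RefSeq's, found for 9 of 10 members. One comparison of Cd22 with another gene is not reported here.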

Additional observations from a re-analysis of the deposited data

How the results depend on the processing

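Cd22, St6gal1, B4galt1, St8sia1 and Siglecg kept their direction in all 3 comparisons under the 5 other scalings or trend removals. At 24 h against control their log2 ratios ranged from -3.26 to -2.90 for Cd22, -1.82 to -1.48 for St6gal1, 1.63 to 2.06 for B4galt1, 3.98 to 4.75 for St8sia1 and 0.90 to 1.19 for Siglecg. Signs of St3gal1, Cmah, Cmas and Gne, which were under 2-fold, turned with 1 or more settings. Relative to TMM, total counts and TPM moved the median gene by 0.08 and 0.16 at 6 h, by 0.16 and 0.26 at 24 h and by 0.08 and 0.11 at 24 h against 6 h. The share of 24 h calls that were higher was 78.6%, 90.1% with total counts, 93.9% with TPM and 58.7% at 1.5-fold; at 6 h it was 86.9%, 71.4% with no minimum and 76.0% at 1.5-fold.

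Of the members, 2 were higher at 6 h, and 1 with TPM (St8sia1 falls under the TPM minimum), with a minimum of 5 CPM or at 3-fold. The 1 lower at 6 h became 2 with the length trend removed or at 1.5-fold, St6gal1 being the second. At 24 h against 6 h, 1.5-fold gave 3 higher and 2 lower and 3-fold left 0 lower.

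Over all genes, at 6 h the 258 higher became 835 with no minimum, 153 at 5 CPM, 728 at 1.5-fold and 88 at 3-fold. The 39 lower became 22 with TPM, 335 with no minimum, 22 at 5 CPM, 230 at 1.5-fold and 4 at 3-fold. At 24 h the 797 higher became 1583, 502, 1808 and 313 in the order used for the higher genes at 6 h. The 217 lower became 118 with total counts, 77 with TPM, 438 with no minimum, 1274 at 1.5-fold and 37 at 3-fold. At 24 h against 6 h the 201 higher became 960, 88, 684 and 42 in that order. The 40 lower became 239, 17, 227 and 6 in that order too. Fewer genes are tested with a higher minimum and more with none, and another fold limit changes the number of calls by definition. Total counts and TPM moved the median gene as given above, and the part of that shift in the calls was not tested. No paired analysis was possible because each group has 1 library, and for the same reason no library could be left out.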

Other observations

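Of the 2 measured genes on either side of each of the 4 members called at 24 h (16 in all, by RefSeq position), Etnk1, 177 kb from St8sia1, and Lpp, 1033 kb from St6gal1, were higher at 24 h, 2 of 16 beside 7.41% of all measured genes called higher, and 14 were not called. C2cd5, 21.4 kb from St8sia1, had 55.3, 55.6 and 79.7 CPM in control, 6 h and 24 h, and Cmas on its other side was close to its control level. Sult6b2, the 1 protein-coding gene between Cmas and St8sia1, had 0, 5 and 1 counts. Usf2, 64.9 kb from Cd22, had 142, 120 and 109 CPM, and Smu1, 46.7 kb from B4galt1, had 193, 178 and 145 CPM.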
